A study of Homo sapiens with 18 samples.

Results

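The genes described here build the MHC class I molecule and load it with peptide: the heavy chains HLA-B, HLA-C and HLA-E, the light chain B2M, the peptide transporter subunits TAP1 and TAP2, the loading chaperone tapasin (TAPBP) and the peptide-trimming enzyme ERAP1. They were taken by gene symbol, and all 8 of 8 were found among the 59385 genes of a deposited table of read abundance scaled to exon length and library size (RPKM). All 8 also passed the filter for testing, a mean of at least 1 RPKM over the 18 libraries, which 11685 genes passed. The cells were LNCaP, a human prostate cancer line that expresses the androgen receptor, grown with 10% FBS. They were transfected by RNAiMAX with siNC, taken here as the control siRNA, with siPDIA1 against PDIA1 (gene P4HB), or with siPDIA5 against PDIA5, and RNA was taken at 48 h or 96 h. Each of the 6 groups had 3 libraries, made from polyA RNA with a stranded kit and 15 cycles of amplification. All groups share a single parental line, transfection reagent and medium, and the labels give neither untransfected cells nor more than 1 siRNA name per target. The labels do not tell whether replicate libraries stem from different cultures, and a p-value here therefore reflects library-to-library spread, part of which may be technical.

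As background, class I heavy chains fold in the endoplasmic reticulum (ER) with calnexin, join B2M, and are held by tapasin, the disulphide isomerase ERp57 (PDIA3) and calreticulin beside the TAP transporter until a peptide binds. Peptides are cut by the proteasome in the cytosol, pumped into the ER by the TAP1-TAP2 pair, and shortened there by ERAP1 before loading. PDIA1 and PDIA5 are disulphide isomerases of the same compartment, and class I genes are commonly induced by interferon gamma and NF-kB and reduced in prostate tumours.

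The estimated depth of the libraries was 29.2 to 43.9 M reads (median 37.3 M). With siPDIA1 the P4HB level was 8.58% of siNC at 48 h and 13.3% at 96 h, and with siPDIA5 the PDIA5 level was 11.1% and 9.40% of siNC; P4HB itself rose with siPDIA5, by 0.94 at 48 h and 0.84 at 96 h on the log2 scale. Leukocyte genes summed to at most 0.523 RPKM over 9 genes in any library, CD3E, CD2 and TYROBP were listed at 0 in all 18, and PTPRC, which encodes CD45, reached 0.0263 RPKM. The 8 luminal prostate markers (KLK3, KLK2, TMPRSS2, FOLH1, HOXB13, STEAP2, KRT8 and KRT18) were all detected and their summed level was 865 to 876 RPKM with siNC, 829 to 849 with siPDIA1 and 941 to 984 with siPDIA5 at 48 h. By 96 h this sum was 890.0 to 977, 1051 to 1078 and 1325 to 1370 RPKM. The 8 did not move together. With siPDIA5, 4 were called higher and 2 lower at 48 h, and 6 and 2 at 96 h. The 2 lower were HOXB13 (-0.49 and -0.69, log2 scale) and TMPRSS2 (-0.43 and -0.41). With siPDIA1, 1 was higher and 2 lower at 48 h, and 3 and 2 at 96 h. Of all tested genes, 16.6% and 29.2%, then 20.8% and 30.3%, were called with siPDIA5. The shares with siPDIA1 were 16% and 17.4%, then 20.1% and 25.2%. The 8 basal and stromal markers summed to 1.02 to 1.34 RPKM with siNC, 1.83 to 2.29 with siPDIA1 and 1.85 to 2.01 with siPDIA5 at 48 h, and to 1.43 to 1.71, 3.44 to 3.80 and 2.18 to 2.71 RPKM at 96 h. The endothelial gene VWF, the sole one of them above the filter, was called higher in all 4 comparisons with siNC (0.38 and 0.72 with siPDIA1, 0.30 and 0.45 with siPDIA5), while KRT5, TP63, DCN, COL1A2 and PECAM1 stayed under 0.06 RPKM, LUM reached 0.0927 and KRT14 0.679. In bulk samples fewer cells of a type and less RNA per cell cannot be told apart, and the part of these shifts in the results below was not tested. The library siPDIA1 96 h replicate 1 stood apart, with a root mean square deviation from its group of 0.247 on the log2 scale against 0.109 to 0.179 in the other libraries.

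Promoter stretches are shown for 4 of the genes, the heavy chains HLA-B and HLA-C, the light chain B2M and the transporter subunit TAP1, because letters read by the known regulators of class I genes lie in them. They are RefSeq sequence of build GRCh38.p14, 190 bases upstream of the RefSeq start and read along the gene. That start differs from the ends of the GENCODE 29 spans given below. The TAP1 stretch lies inside the TAP1 span, and those of HLA-B, HLA-C and B2M reach into theirs. The HLA-B stretch is chr6:31357180-31357369 on the minus strand, HLA-C chr6:31272093-31272282 on the minus strand, B2M chr15:44711327-44711516 on the plus strand and TAP1 chr6:32853705-32853894 on the minus strand. Capitals mark whole matches, on either strand, to paired GAAA letters (GAAA, any 2 bases, GAAA, the core of the interferon response element), GGGNNTTCC (NF-kB letters), TGACG (X2 letters of the SXY module) or ATTGG (its Y box letters); neighbouring matches to paired GAAA letters overlap.
HLA-B: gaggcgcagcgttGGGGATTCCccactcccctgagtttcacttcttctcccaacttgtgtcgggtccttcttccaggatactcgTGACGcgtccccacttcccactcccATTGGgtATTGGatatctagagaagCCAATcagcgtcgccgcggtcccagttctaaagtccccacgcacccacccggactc
HLA-C: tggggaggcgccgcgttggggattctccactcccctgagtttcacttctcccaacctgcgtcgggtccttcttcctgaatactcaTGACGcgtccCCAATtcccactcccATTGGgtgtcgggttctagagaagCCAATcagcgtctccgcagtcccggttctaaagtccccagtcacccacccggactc
B2M: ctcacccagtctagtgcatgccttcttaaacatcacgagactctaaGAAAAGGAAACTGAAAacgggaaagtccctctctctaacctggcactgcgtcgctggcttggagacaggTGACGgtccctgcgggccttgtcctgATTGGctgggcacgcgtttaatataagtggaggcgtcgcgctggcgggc
TAP1: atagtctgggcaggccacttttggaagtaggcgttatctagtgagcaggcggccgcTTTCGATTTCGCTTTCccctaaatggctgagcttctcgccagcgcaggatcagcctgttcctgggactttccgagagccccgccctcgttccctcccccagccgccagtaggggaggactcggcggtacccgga

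The HLA-B and HLA-C stretches were identical at 170 of 194 aligned positions (87.6%). Both hold TGACG and several ATTGG copies, and only the HLA-B stretch of this pair holds GGGNNTTCC. B2M has an overlapping pair of matches to paired GAAA letters at -144 to -129 from its start, and TAP1 has such a pair on the opposite strand at -134 to -119. Windows of 250 bases before to 50 after the start were at hand for 7 of the 8 genes (9 windows in all); the other gene is HLA-E. Paired GAAA letters were found in 5 of the 9 windows, those of B2M, TAP1, TAP2, TAPBP and ERAP1, and in 3.57% of the 35116 windows of all genes. GGGNNTTCC was in the windows of HLA-B, B2M, TAPBP and ERAP1 (6.58% of all windows), TGACG in those of HLA-B, HLA-C, B2M and TAP2 (24.6%), and ATTGG in those of HLA-B, HLA-C, B2M, TAP1 and ERAP1 (34.6%). The B2M match to GGGNNTTCC lies across the start, at -4 to 4, outside the printed stretch. TAP1 had no exact match to these letters, though its stretch holds the near letters gggactttcc. A match is a description of the letters and not a binding site, and a missing match does not mean that a gene lacks the element. Only exact letters were searched. The HLA-B and HLA-C stretches both hold gagtttcacttct, which comes near the paired GAAA letters on the opposite strand and was not counted.

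By level, which RPKM gives per length of exon, HLA-C was the highest of the 8 genes in all 6 groups, followed by TAPBP and B2M. HLA-C ranged from 68.9 to 127 RPKM over the 18 libraries, TAPBP from 30.0 to 40.3 and B2M from 25.9 to 33.2. TAPBP and B2M did not overlap in 5 groups and overlapped with siPDIA1 at 96 h. HLA-B (8.79 to 27.6 RPKM), HLA-E (8.91 to 19.6) and TAP1 (7.49 to 13.4) formed the middle of the order and changed places between groups. TAP2 (1.71 to 3.10) and ERAP1 (1.02 to 5.79) were lowest. ERAP1 lay below TAP2 in both siNC groups and above it in mean in all 4 knockdown groups, where the libraries of the pair overlapped only with siPDIA1 at 48 h. Across libraries ERAP1 varied most, 5.70-fold from lowest to highest, then HLA-B at 3.14-fold, and B2M least at 1.28-fold.

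**Figure D1:**
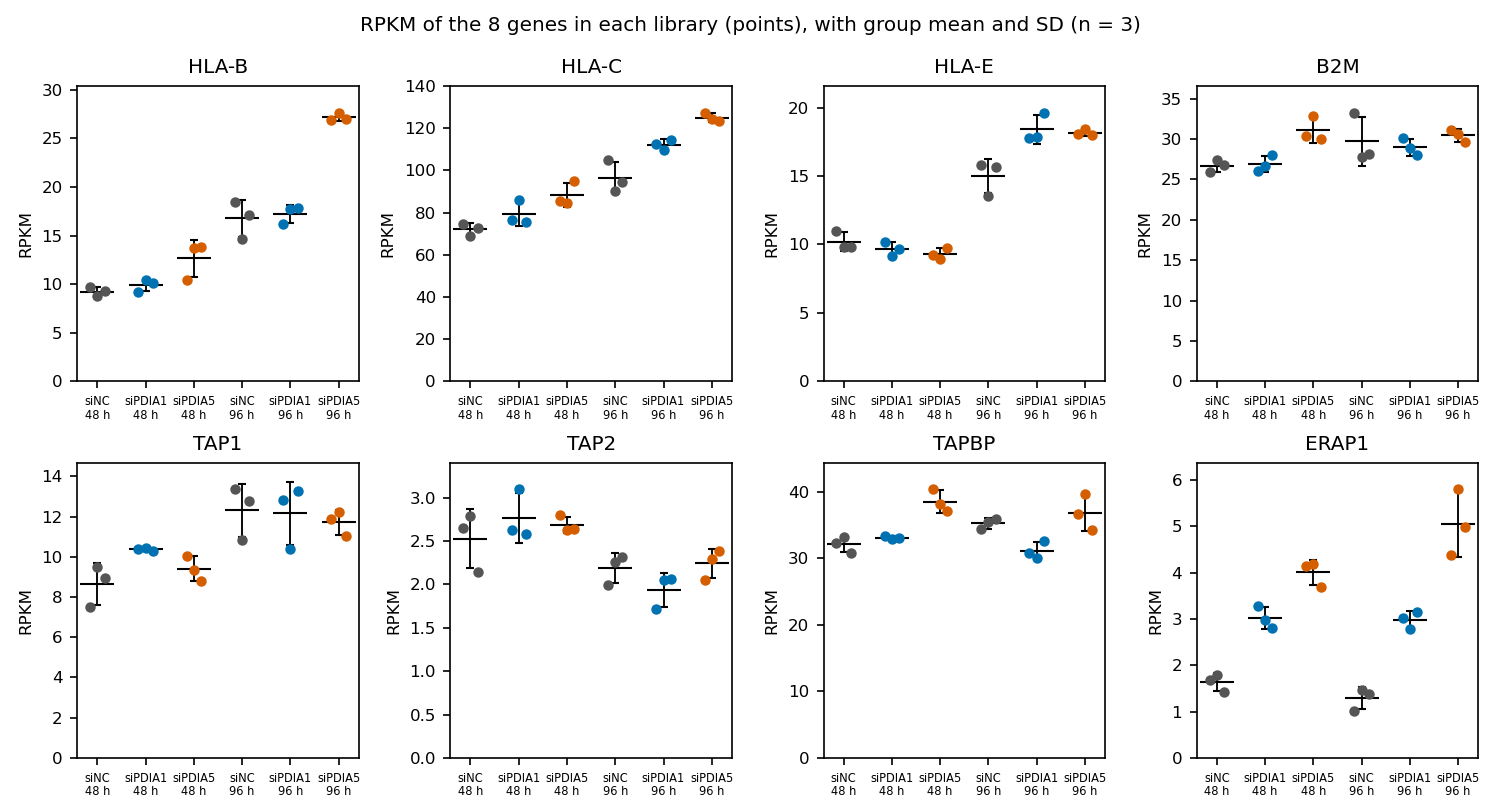
RPKM (y axis, each from 0) of the 8 genes in each of the 18 libraries, by siRNA and time (x axis); points are libraries, bars the group mean and SD (n = 3). The siPDIA5 96 h libraries of HLA-B (26.9 to 27.6 RPKM) sit above all others, ERAP1 is above siNC in every knockdown library, and B2M moves least.

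HLA-B, a classical heavy chain that presents peptides to CD8 T cells, is annotated at chr6:31269491-31357188 (GENCODE 29, GRCh38, minus strand), a span that overlaps HLA-C. At 48 h its level was 9.70, 8.79 and 9.26 RPKM in the siNC libraries, 9.24, 10.4 and 10.1 with siPDIA1 and 10.4, 13.7 and 13.9 with siPDIA5. Its 96 h values were 18.5, 14.7 and 17.2 RPKM with siNC, 16.2, 17.7 and 17.8 with siPDIA1 and 26.9, 27.6 and 26.95 with siPDIA5. The siPDIA5 libraries were above every siNC library at both times, whereas siPDIA1 and siNC overlapped at both.

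Against siNC, HLA-B rose with siPDIA5 by 0.41 ± 0.09 (SE, log2 scale) at 48 h and by 0.67 ± 0.09 at 96 h (limma on log2(RPKM + 1), adjusted p = 0.00199 and 1.63e-05, n = 3 libraries a group). Here and below, p is adjusted by Benjamini-Hochberg over all 11685 tested genes, and a difference is called at an adjusted p under 0.05. The shift of the siPDIA5 difference between the times, 0.26 ± 0.13, was not called (adjusted p = 0.180). With siPDIA1 the differences were 0.09 (adjusted p = 0.502) and 0.04 (adjusted p = 0.748). Set directly against siPDIA5, siPDIA1 was lower by -0.32 ± 0.09 at 48 h (adjusted p = 0.0120) and by -0.63 ± 0.09 at 96 h (adjusted p = 3.85e-05). The 48 h difference between the siRNAs lost its call without siPDIA1 replicate 1 (adjusted p = 0.0546), siPDIA5 replicate 2 (0.0590) or siPDIA5 replicate 3 (0.0607). Comparisons at 1 time use the same siNC libraries, so they are not independent of each other.

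HLA-C, the other classical heavy chain measured here and also a ligand of killer-cell inhibitory receptors, lies at chr6:31268749-31272130 on the minus strand. At 48 h its level was 74.4, 68.9 and 72.9 RPKM with siNC, 76.7, 86.1 and 75.7 with siPDIA1 and 85.6, 84.8 and 95.1 with siPDIA5. By 96 h the values were 105, 90.3 and 94.7 RPKM with siNC, 113, 109.6 and 114 with siPDIA1 and 127, 124 and 123 with siPDIA5. Both knockdowns lay above siNC without overlap at both times, and the order siNC, siPDIA1, siPDIA5 held in the group means. HLA-C rose with siPDIA5 by 0.29 ± 0.06 at 48 h (adjusted p = 0.00111) and 0.37 ± 0.06 at 96 h (adjusted p = 0.000104). With siPDIA1 it rose by 0.22 ± 0.06 at 96 h (adjusted p = 0.00909), while the 48 h difference of 0.14 ± 0.06 was not called (adjusted p = 0.1002), though it was after quantile normalization (0.00908). The difference of siPDIA1 from siPDIA5 was -0.15 at both times, with an adjusted p of 0.0564 at 48 h and 0.0498 at 96 h. That 96 h call was lost without any of the 6 libraries compared (adjusted p from 0.0679 to 0.133), with a pseudocount of 0.25 (0.0506), with no filter (0.127), after median centring (0.0585), with no trend (0.0695) and with a replicate block (0.0623).

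HLA-E, a less variable heavy chain that presents leader peptides of other class I molecules to NKG2A receptors, lies at chr6:30489467-30494205 on the plus strand. At 48 h its level was 11, 9.79 and 9.85 RPKM with siNC, 10.2, 9.19 and 9.67 with siPDIA1 and 9.26, 8.91 and 9.78 with siPDIA5. After 96 h HLA-E stood at 15.8, 13.5 and 15.6 RPKM with siNC, 17.8, 17.9 and 19.6 with siPDIA1 and 18.1, 18.5 and 18 with siPDIA5. Both knockdowns were above all siNC libraries at 96 h. At 48 h neither was above them, and the siPDIA5 libraries (8.91 to 9.78 RPKM) lay below every siNC library (9.79 to 11). HLA-E rose at 96 h by 0.28 ± 0.06 with siPDIA1 (adjusted p = 0.00202) and by 0.26 ± 0.06 with siPDIA5 (adjusted p = 0.00260). At 48 h the differences were -0.07 (adjusted p = 0.437) and -0.12 (adjusted p = 0.143). siPDIA1 and siPDIA5 did not differ beyond the spread at 48 h (0.05, adjusted p = 0.577) or at 96 h (0.02, adjusted p = 0.846). The shift of the difference from siNC between the times was 0.35 ± 0.09 for siPDIA1 (adjusted p = 0.0319) and 0.38 ± 0.09 for siPDIA5 (adjusted p = 0.00800).

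B2M, the light chain that every class I heavy chain here needs to reach the surface, lies at chr15:44711487-44718877 on the plus strand. Its level at 48 h was 25.9, 27.4 and 26.8 RPKM with siNC, 26.1, 26.7 and 28.0 with siPDIA1 and 30.4, 32.9 and 30.0 with siPDIA5. The 96 h libraries held 33.2, 27.8 and 28.1 RPKM with siNC, 30.1, 28.9 and 28.0 with siPDIA1 and 31.1, 30.6 and 29.6 with siPDIA5. The siPDIA5 libraries stood above all others at 48 h and inside the siNC range at 96 h. B2M rose with siPDIA5 at 48 h by 0.21 ± 0.06 (adjusted p = 0.00900) and was lower with siPDIA1 than with siPDIA5 by -0.20 ± 0.06 (adjusted p = 0.0139). Without siPDIA1 replicate 1 (adjusted p = 0.0555) or siPDIA5 replicate 2 (0.0693) the second difference was not called. At 96 h the difference of siPDIA5 from siNC was 0.04 (adjusted p = 0.643), a shift of -0.18 ± 0.09 from 48 h that was not called (adjusted p = 0.173). With siPDIA1 the values were 0.01 at 48 h (adjusted p = 0.910) and -0.03 at 96 h (adjusted p = 0.701).

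The summed level of the 3 heavy chains is set here beside B2M, which was itself called higher with siPDIA5 at 48 h. The sum was 91.5 ± 3.83 RPKM (SD, n = 3) with siNC, 99.1 ± 5.73 with siPDIA1 and 110.5 ± 7.25 with siPDIA5 at 48 h. Later, at 96 h, the sum was 128 ± 10.3, 148 ± 3.55 and 170.3 ± 1.98 RPKM. Divided by B2M in the same library, the ratio was 3.20 to 3.68 with siNC, 3.41 to 3.96 with siPDIA1 and 3.27 to 3.95 with siPDIA5 at 48 h, where the groups overlapped. The 96 h ratios were 4.19 to 4.53, 4.88 to 5.43 and 5.54 to 5.68, with no overlap between the groups. HLA-B made up 10.1% ± 0.0822 (SD) of the sum with siNC at 48 h and 15.95% ± 0.298 with siPDIA5 at 96 h, against 13.0% ± 0.570 and 11.7% ± 0.597 with siNC and siPDIA1 at 96 h. These ratios are descriptions without a test.

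TAP1 and TAP2 form the transporter that brings cytosolic peptides into the ER. TAP1 (chr6:32845209-32853978, minus strand) was at 7.49, 9.49 and 8.94 RPKM with siNC, 10.4, 10.5 and 10.3 with siPDIA1 and 10.0, 9.34 and 8.81 with siPDIA5 at 48 h. At 96 h it was at 13.4, 10.8 and 12.8 RPKM with siNC, 12.8, 10.4 and 13.3 with siPDIA1 and 11.9, 12.2 and 11.03 with siPDIA5. The siPDIA1 libraries were tightly together above siNC at 48 h, and all groups overlapped at 96 h. No difference from siNC was called: the largest was 0.25 ± 0.09 with siPDIA1 at 48 h (adjusted p = 0.0585), which was called without siNC replicate 2 (adjusted p = 0.0351), at 5 RPKM (0.0463), after quantile normalization (0.0416), with the groups compared alone (0.0447) and with protein-coding genes alone (0.0431). TAP2 (chr6:32821833-32838780, minus strand) was at 2.66, 2.79 and 2.14 RPKM with siNC, 2.63, 3.10 and 2.58 with siPDIA1 and 2.80, 2.63 and 2.63 with siPDIA5 at 48 h. Its 96 h levels were 1.99, 2.26 and 2.32 RPKM, then 1.71, 2.05 and 2.06, then 2.05, 2.29 and 2.38 in the same order. All groups overlapped siNC at both times, and the group means lay between 1.94 RPKM with siPDIA1 at 96 h and 2.77 with siPDIA1 at 48 h. None of its differences from siNC was called, the lowest adjusted p being 0.283.

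TAPBP encodes tapasin, which bridges the TAP transporter and the empty heavy chain and edits the bound peptide, and lies at chr6:33299694-33314387 on the minus strand. At 48 h its level was 32.3, 33.1 and 30.8 RPKM with siNC, 33.3, 32.9 and 33.0 with siPDIA1 and 40.3, 38.1 and 37.0 with siPDIA5. Its values at 96 h were 34.3, 35.4 and 35.9 RPKM with siNC, 30.8, 30.0 and 32.5 with siPDIA1 and 36.6, 39.6 and 34.2 with siPDIA5. The siPDIA5 libraries were the highest at 48 h, and the siPDIA1 libraries were the lowest at 96 h, in each case without overlap. TAPBP rose with siPDIA5 at 48 h by 0.26 ± 0.05 (adjusted p = 0.000868), and at 96 h the difference was 0.06 ± 0.05 (adjusted p = 0.384). The shift between the times was -0.20 ± 0.07 (adjusted p = 0.0764), not called, and called after median centring (0.0183). With siPDIA1 it fell at 96 h by -0.17 ± 0.05 (adjusted p = 0.0124), after 0.04 at 48 h (adjusted p = 0.562). The fall was not called after quantile normalization (adjusted p = 0.175) or without siPDIA1 replicate 2 (0.0545). siPDIA1 was below siPDIA5 by -0.21 ± 0.05 at 48 h (adjusted p = 0.00413) and -0.23 ± 0.05 at 96 h (adjusted p = 0.00161).

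ERAP1, the ER aminopeptidase that trims the ends of class I peptides, differed from siNC by more than the other 7 genes in each of the 4 comparisons and lies at chr5:96760810-96808100 on the minus strand. At 48 h its level was 1.68, 1.797 and 1.42 RPKM with siNC, 3.29, 2.97 and 2.80 with siPDIA1 and 4.13, 4.19 and 3.68 with siPDIA5. The 96 h values were 1.02, 1.46 and 1.38 RPKM with siNC, 3.01, 2.78 and 3.15 with siPDIA1 and 4.37, 5.79 and 4.98 with siPDIA5. The 3 siRNAs lay in the order siNC, siPDIA1, siPDIA5 at both times with no overlap. As a share of the siNC mean, the level was 185% with siPDIA1 and 245% with siPDIA5 at 48 h, and 232% and 392% at 96 h.

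ERAP1 rose with siPDIA1 by 0.61 ± 0.10 at 48 h (adjusted p = 0.000155) and 0.80 ± 0.10 at 96 h (adjusted p = 6.46e-06). With siPDIA5 it rose by 0.93 ± 0.10 (adjusted p = 1.50e-06) and 1.40 ± 0.10 (adjusted p = 8.83e-09). These values are on the log2(RPKM + 1) scale, which understates the change of a gene at this level. siPDIA1 was below siPDIA5 by -0.32 ± 0.10 at 48 h (adjusted p = 0.0166) and by -0.60 ± 0.10 at 96 h (adjusted p = 0.000108). The 48 h difference between the siRNAs was not called without siPDIA1 replicate 3 (adjusted p = 0.0669), siPDIA5 replicate 1 (0.0513) or siPDIA5 replicate 2 (0.0574). The difference of siPDIA5 from siNC was larger at 96 h than at 48 h by 0.47 ± 0.14 (adjusted p = 0.0267), and that of siPDIA1 by 0.19 ± 0.14 (adjusted p = 0.524). ERAP1 rested on an estimated 261 to 1498 reads a library, the HLA-C value on 6520 to 13769.

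**Figure D2:**
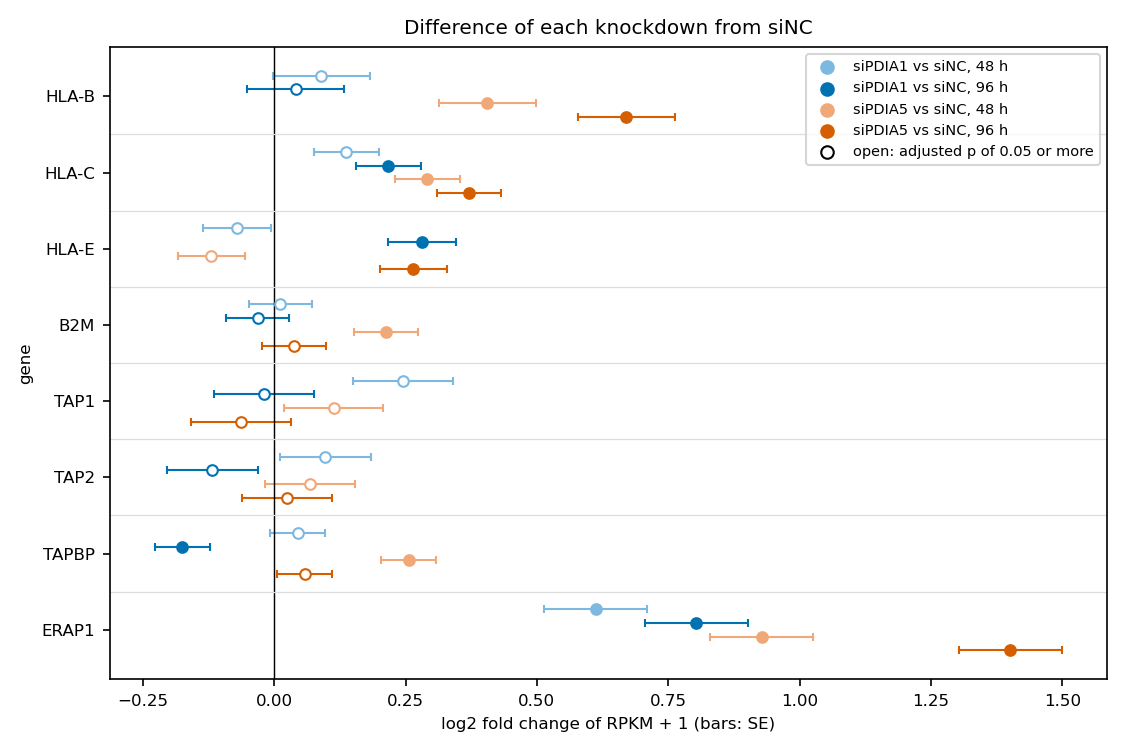
Log2 fold change of RPKM + 1 against siNC (x axis) for the 8 genes (y axis); points are fitted differences, bars their SE, filled where the adjusted p is under 0.05. ERAP1 is filled in all 4 comparisons (0.61 to 1.40), HLA-B is filled with siPDIA5 alone, and TAP1 and TAP2 are open throughout.

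Counted over the 8 genes, siPDIA1 at 48 h gave 1 higher, 0 lower and 7 not called, where 33.4% of all tested genes were called (16% higher, 17.4% lower). At 96 h siPDIA1 gave 3 higher (HLA-C, HLA-E, ERAP1) and 1 lower (TAPBP), against 45.3% called (20.1% higher, 25.2% lower). siPDIA5 gave 5 higher and 0 lower at 48 h (HLA-B, HLA-C, B2M, TAPBP, ERAP1), against 45.8% called (16.6% higher, 29.2% lower). At 96 h it gave 4 higher and 0 lower (HLA-B, HLA-C, HLA-E, ERAP1), against 51.1% called (20.8% higher, 30.3% lower). The median log2 difference over the 8 genes was 0.09 and 0.01 with siPDIA1 and 0.23 and 0.16 with siPDIA5 at 48 h and 96 h. Over all tested genes it was -0.01 and -0.03 with siPDIA1 and -0.09 and -0.06 with siPDIA5. For siPDIA5 at 48 h the share of calls that were higher was 36.3%, and it was 54.9% after median centring and 49.4% after quantile normalization. Median centring moved that comparison's median over all genes from -0.09 to 0.01, and under it 5 of the 8 genes were again called higher. Where 0 of the 8 genes were called lower against siNC by limma, 0 had a lower value at an unadjusted p under 0.05.

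siPDIA1 set against siPDIA5 gave 0 higher and 4 lower at 48 h (HLA-B, B2M, TAPBP, ERAP1), where 41.2% of all tested genes were called (26.3% higher, 14.9% lower). At 96 h it gave 0 higher and 4 lower (HLA-B, HLA-C, TAPBP, ERAP1), against 48.5% called (27.7% higher, 20.9% lower). The share of all 48 h calls that were higher was 63.8%, and 43.5% after median centring or 50.3% after quantile normalization. The shift of the siPDIA1 difference from 48 h to 96 h was called in 1 of the 8 genes (HLA-E, higher), against 5.47% of all genes (2.5% higher, 2.97% lower). That of siPDIA5 was called in 2 (HLA-E and ERAP1, higher), against 18.3% (9.22% higher, 9.09% lower), and the share higher among all of these calls was 50.4%, or 35.5% after median centring. The call for HLA-E with siPDIA1 was lost without siPDIA1 48 h replicate 2 (adjusted p = 0.0872) or 3 (0.0646), siPDIA1 96 h replicate 3 (0.0888), siNC 48 h replicate 1 (0.0793) or siNC 96 h replicate 2 (0.0512). The call for ERAP1 with siPDIA5 was lost without siPDIA5 48 h replicate 3 (0.0623), siPDIA5 96 h replicate 2 (0.0709), siNC 48 h replicate 2 (0.0660) or siNC 96 h replicate 1 (0.0644).

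The 3 heavy chains rose from 48 h to 96 h in every siRNA group. With siNC, 4 of the 8 genes rose from 48 h to 96 h and 0 fell, against 24.3% of all tested genes called (11% higher, 13.3% lower). HLA-B rose by 0.79 ± 0.09 (adjusted p = 3.68e-05), HLA-E by 0.51 ± 0.06 (adjusted p = 6.48e-05), TAP1 by 0.47 ± 0.09 (adjusted p = 0.00266) and HLA-C by 0.42 ± 0.06 (adjusted p = 0.000252). B2M (0.15, adjusted p = 0.0890) and TAPBP (0.13, adjusted p = 0.0756) were not called. The number of all genes called here fell from 2839 to 1856 without siNC 48 h replicate 2, to 1655 without siNC 96 h replicate 1 and to 1845 without siNC 96 h replicate 3, and the 4 genes were called in each case.

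Within siPDIA1 the same time step, a comparison added after the data were seen, gave 3 higher and 1 lower, against 30.7% called (12.7% higher, 18.1% lower). HLA-E rose by 0.86, HLA-B by 0.74 and HLA-C by 0.50 (adjusted p = 1.45e-07, 2.30e-05 and 2.24e-05), and TAP2 fell by -0.36 ± 0.09 (adjusted p = 0.00540). Within siPDIA5, likewise added, 5 were higher and 0 lower, against 39.3% called (20% higher, 19.2% lower); TAP2 was lower at an unadjusted p of 0.0473 (-0.19) and was called after median centring (adjusted p = 0.0495) and quantile normalization (0.0109). HLA-B rose by 1.05, HLA-E by 0.90 and HLA-C by 0.49 (adjusted p = 2.76e-07, 2.80e-08 and 1.14e-05). TAP1 (0.29 ± 0.09, adjusted p = 0.0230) and ERAP1 (0.27 ± 0.10, adjusted p = 0.0391) were called more weakly: TAP1 was lost without siPDIA5 48 h replicate 2 or 3 or 96 h replicate 1 or 2 (adjusted p from 0.0564 to 0.0779), and ERAP1 without any library but siPDIA5 96 h replicate 1 (0.0548 to 0.189), with a pseudocount of 0.25 (0.0635), after median centring (0.0590) or quantile normalization (0.0891) and with the groups compared alone (0.0679). Both were lost with no filter (0.0720 and 0.0992). The ratio of TAP1 to TAP2 was 3.47 ± 0.682 (SD) with siNC, 3.77 ± 0.345 with siPDIA1 and 3.50 ± 0.135 with siPDIA5 at 48 h, and 5.67 ± 0.958, 6.33 ± 1.21 and 5.25 ± 0.580 at 96 h. Its 48 h and 96 h libraries did not overlap within any siRNA.

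**Figure D3:**
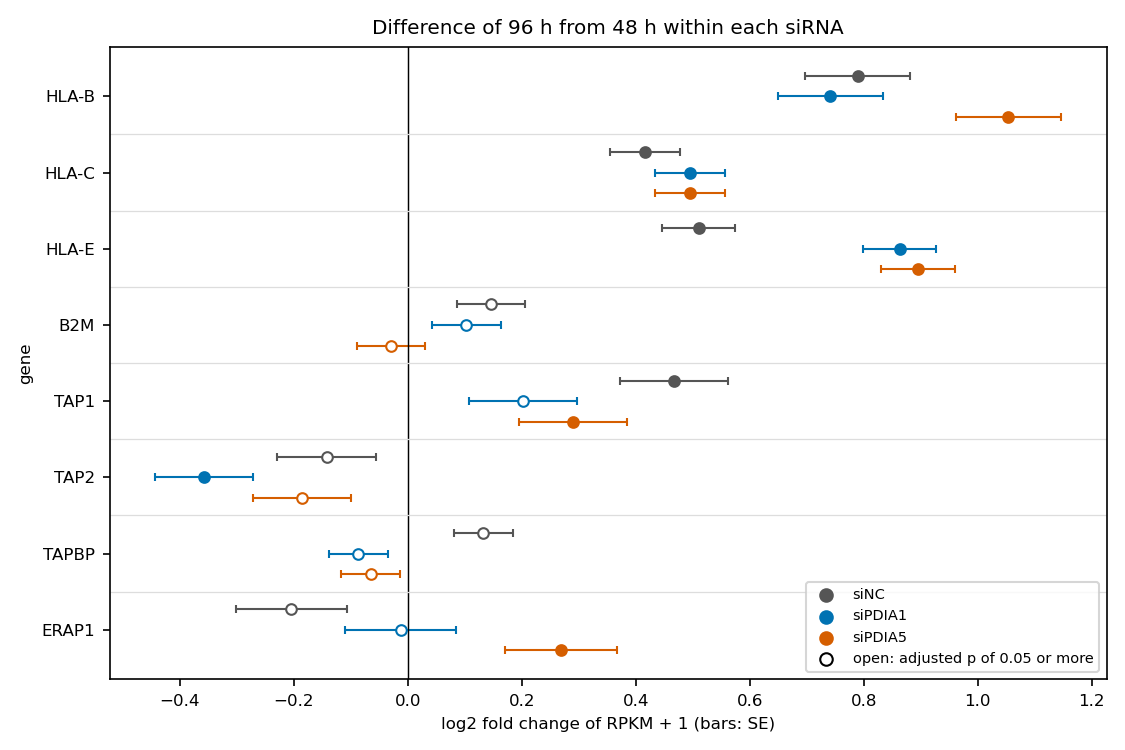
Log2 fold change of RPKM + 1 from 48 h to 96 h (x axis) within siNC, siPDIA1 and siPDIA5 for the 8 genes (y axis); bars are SE, filled points have an adjusted p under 0.05. HLA-B, HLA-C and HLA-E are filled for all siRNAs (0.42 to 1.05), and B2M and TAPBP for none.

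The counts in the lists of other genes on the class I route stand beside the same shares of all tested genes. With siPDIA1 these were 33.4% called at 48 h (16% higher, 17.4% lower) and 45.3% at 96 h (20.1%, 25.2%). With siPDIA5 they were 45.8% (16.6%, 29.2%) and 51.1% (20.8%, 30.3%). No list was tested as a set, and a count near these shares is not a result about its list. Of 6 immunoproteasome and activator genes, PSMB8 and PSMB9, the inducible subunits encoded beside TAP1 and TAP2, stayed below the filter (at most 0.626 and 0.826 RPKM). Of the 4 tested, siPDIA1 lowered 1 at each time, the nuclear activator PSME3 (-0.25 and -0.34), and raised 0; PSME2 at 96 h had an unadjusted p of 0.0266 (0.19). siPDIA5 moved 0 at 48 h, also at an unadjusted p under 0.05 (the median of the 4 was 0.14), and at 96 h it raised PSMB10, the inducible subunit MECL-1, from 2.42 to 4.68 RPKM (0.73 ± 0.13, adjusted p = 0.000182). At the same time PSME3 (-0.45) and PSME1 (-0.22), a subunit of the interferon-induced PA28 cap, fell.

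Among 8 ER folding partners, siPDIA1 gave 1 higher and 1 lower at 48 h and 5 higher and 1 lower at 96 h; siPDIA5 gave 6 and then 7 higher with 0 lower. The median log2 difference of the 8 was 0.01 and 0.23 with siPDIA1 and 0.32 and 0.42 with siPDIA5. GANAB, the glucosidase subunit that readies glycoproteins for calnexin, rose in all 4 comparisons, by 1.76 and 1.48 with siPDIA1 and 1.61 and 1.36 with siPDIA5. CANX, calnexin itself, fell with siPDIA1 (-0.55 and -0.57) and rose with siPDIA5 at 96 h (0.16). PDIA3, the ERp57 partner of tapasin, rose with siPDIA5 by 0.39 and 0.40, and the chaperone HSPA5 (BiP) by 0.48 and 0.56; with siPDIA1 they rose at 96 h, by 0.26 and 0.21. CALR, the calreticulin of the loading complex, rose with siPDIA1 at 96 h (0.38) and with siPDIA5 at both times (0.33 and 0.44). TAPBPL, the tapasin-related peptide editor TAPBPR, stood at 3.08 RPKM with siNC and 8.63 with siPDIA5 at 96 h (1.24 ± 0.11, adjusted p = 1.09e-07), where TAPBP differed by 0.06. It also rose with siPDIA1 at 96 h (0.29) and siPDIA5 at 48 h (0.32).

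Of 8 other peptidases of the route, ERAP2, the partner of ERAP1, was below the filter (at most 0.281 RPKM) and 7 were tested. With siPDIA1 2 rose and 1 fell at 48 h and 1 rose and 2 fell at 96 h; with siPDIA5 it was 3 and 2, then 3 and 3. LAP3, a cytosolic leucine aminopeptidase, rose in all 4, by 0.35 and 0.44 with siPDIA1 and 0.32 and 0.20 with siPDIA5. BLMH, bleomycin hydrolase, rose with siPDIA1 at 48 h (0.39) and fell with siPDIA5 (-0.47 and -0.82). THOP1, which degrades cytosolic peptides, rose with siPDIA5 by 0.27 and 0.40, and HM13, the signal peptide peptidase that releases leader peptides for HLA-E, by 0.28 and 0.32. TPP2, a large cytosolic peptidase, fell with siPDIA5 (-0.48 and -0.30). NPEPPS, the puromycin-sensitive aminopeptidase, fell with siPDIA1 (-0.15 and -0.18). LNPEP, an aminopeptidase of endosomes, fell at 96 h with siPDIA1 (-0.43) and siPDIA5 (-0.32). The medians of the 7 lay between -0.06 and 0.02 in the 4 comparisons.

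Of 15 transcription factors of class I genes, NLRC5, the class I transactivator, IRF1 and IRF9 were below the filter, NLRC5 with a mean of 0.558 RPKM and IRF1 with 0.613. Of the 12 tested, siPDIA1 raised 1 and lowered 2 at 48 h and raised 4 and lowered 2 at 96 h; siPDIA5 raised 3 and lowered 3, then raised 3 and lowered 4. ATF1, a factor of the CREB family, rose in all 4 comparisons by 0.61, 0.46, 0.75 and 1.02. NFYC, a subunit of the factor that reads CCAAT boxes, fell in all 4 by -0.41, -0.62, -0.44 and -0.45. NFKB1, the p105/p50 subunit of NF-kB, rose with siPDIA1 at 96 h (0.85) and with siPDIA5 at both times (0.32 and 0.72). Its partner RELA fell in all 4, by -0.29, -0.32, -0.26 and -0.21. RFX5, which reads the X box, fell with siPDIA5 at 96 h (-0.50), and STAT2, a factor of the type I interferon signal, with siPDIA5 at 48 h (-0.38).

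Of 6 interferon gamma receptor genes 4 were tested, JAK1 (0.174 to 0.600 RPKM) and SOCS1 being below the filter. Both receptor chains rose in all 4 comparisons, IFNGR1 by 0.64, 0.53, 0.57 and 0.68 and IFNGR2 by 0.42, 0.32, 0.61 and 0.58. The kinase JAK2 fell in all 4, by -0.42, -0.63, -0.60 and -0.53. With siPDIA5 at 96 h PTPN2, a phosphatase that dampens this signal, also rose (0.26), so that 3 were higher and 1 lower there, and 2 higher and 1 lower in the other comparisons.

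Of 11 genes for class I turnover at the surface or in the ER, 10 were tested, MARCHF4 being listed at 0. siPDIA1 gave 1 higher and 3 lower, then 3 and 3; siPDIA5 gave 3 and 3, then 4 and 3. TMEM127, part of a ubiquitin ligase complex that removes class I from the surface, rose in all 4 comparisons by 0.30, 0.33, 0.39 and 0.62, and its partner SUSD6 rose at 96 h with siPDIA1 (0.53) and siPDIA5 (0.65). TMEM129, an ER ubiquitin ligase through which a viral protein degrades class I, fell with siPDIA1 (-0.20 and -0.41) and rose with siPDIA5 (0.32 and 0.46). SYVN1 (HRD1), the main ER-associated ligase, rose with siPDIA1 at 96 h (0.18) and with siPDIA5 by 0.36 and 0.53. UBE2J2, a ubiquitin-conjugating enzyme of the ER membrane, fell in all 4 comparisons by -0.41, -0.38, -0.24 and -0.33, and DERL2, a derlin of ER-associated degradation, by -0.22, -0.24, -0.55 and -0.21. Of 10 class I-like molecules 3 were tested and 0 rose in any comparison, with 3 and 2 lower for siPDIA1 and 2 and 3 lower for siPDIA5. MICA, the stress ligand of NKG2D, fell in all 4 by -0.23, -0.40, -0.31 and -0.47, and AZGP1, a secreted class I-like protein of prostate epithelium, fell from 15.4 to 8.19 RPKM with siPDIA5 at 96 h (-0.83) and also fell with siPDIA1 (-0.17 and -0.76). PROCR, the protein C receptor, fell with siPDIA1 at 48 h (-0.52) and with siPDIA5 (-0.46 and -0.50).

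**Figure D4:**
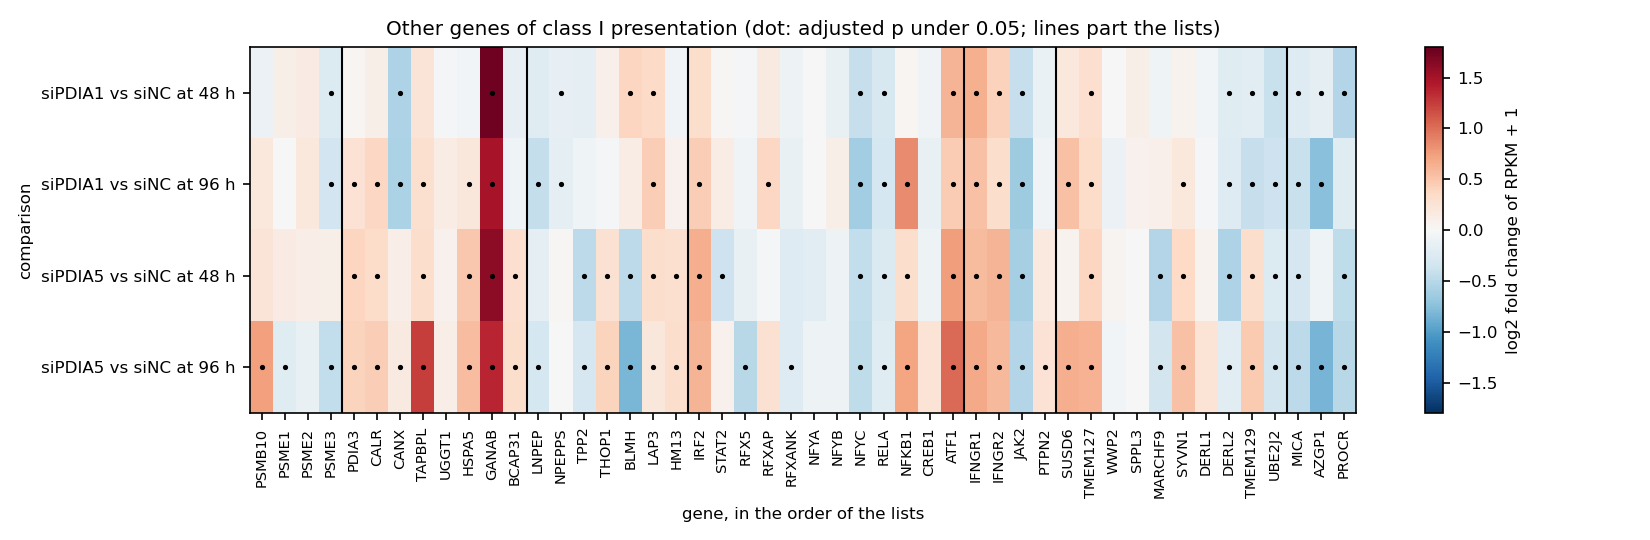
Log2 fold change of RPKM + 1 against siNC (colour scale) in the 4 comparisons (y axis) for the tested genes of 7 lists (x axis, lines between lists); dots mark an adjusted p under 0.05. GANAB, ATF1, IFNGR1 and IFNGR2 are red in all 4 comparisons, and NFYC, JAK2 and MICA are blue with dots in all 4.

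How reads were assigned bounds these values. With GENCODE 29 exon lengths the levels came out as whole reads in 100% of libraries for HLA-C, TAPBP and ERAP1, but in 33.3% for TAP2, 27.8% for HLA-B, 16.7% for HLA-E and B2M and 0% for TAP1, so the gene models behind the table may differ from the GENCODE 29 spans and overlaps given here for those 5. The HLA genes are closely related paralogs that vary between people, so reads could be split between them or lost against the reference, and levels of HLA-B, HLA-C and HLA-E are uncertain to that extent. In GENCODE 29, 32.3% of TAP2 exon bases (2064 bases) are shared with AL669918.1 on the same strand, 17.8% of HLA-B with a pseudogene and 9.49% of TAP1 with PSMB8-AS1 on the opposite strand. ERAP1 shares 299 bases with CAST and 252 with AC008906.1, both on the opposite strand. The kit marks strand, and the strand setting of the counting is not given in the sources used here.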

How the data were processed

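Polyadenylated RNA of 18 LNCaP libraries was sequenced, and the deposited RPKM values per gene were the starting point. Per the submitters' processing notes, the authors used STAR 2.7.0f, cutadapt 1.8, R 3.4.1, DESeq2 and featureCounts with builds GRCh38 and hg38; the role of each and the annotation version were not given in the sources used here. Genes with a mean of at least 1 RPKM (11685, of which 9996 are protein-coding) were tested with limma 3.58.1 (R 4.3.3) on log2(RPKM + 1), a separate mean per group, a mean-variance trend and Benjamini-Hochberg adjustment over all tested genes, called under 0.05, two-sided. The fit was tested on simulated data with independent noise and few changed genes. The real data differ from that setting, so the simulation does not show how reliable the calls here are. Depth was estimated from the steps of low values with GENCODE 29 exon lengths (57118 genes matched; 99.7% to 99.9% of values of at most 20 reads were whole within 0.1 read) and entered no test, so no count test was run. Replicates differed beyond counting noise in all 18 pairs (chi-square per degree of freedom from 6.51 to 45.0). Replicate numbers were not taken to pair libraries, and other shared variation between libraries was not modelled. The genes and lists were chosen with earlier results of these data known. Named are the 8 genes, P4HB and PDIA5, and from each list up to 4 called genes with the smallest adjusted p per comparison with siNC, with their other values; genes below the filter, PSME2 and the members of the marker lists were named beside them, outside this rule; 1 gene of the lists is not reported here and was left out of its list's counts. Other settings tried were a pseudocount of 0.25, no filter, at least 5 RPKM, median centring, quantile normalization, a replicate block, the groups compared alone, no trend, protein-coding genes alone and each library left out.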

Additional observations from a re-analysis of the deposited data

Results flagged for a closer look

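In the fit reported, these differences from siNC were called as shifting between the times, by a test of the shift itself (limma, adjusted over all tested genes, n = 3 libraries a group). HLA-E with siPDIA1 shifted by 0.35 ± 0.09 on the log2 scale between 48 h and 96 h (adjusted p = 0.0319), from -0.07 to 0.28. HLA-E with siPDIA5 shifted by 0.38 ± 0.09 (adjusted p = 0.00800), from -0.12 to 0.26. ERAP1 with siPDIA5 shifted by 0.47 ± 0.14 (adjusted p = 0.0267), from 0.93 to 1.40. The siNC libraries are shared by the HLA-E shifts. With no filter or with the groups compared alone, the HLA-E call with siPDIA1 was lost (adjusted p = 0.0764 and 0.0801). So was the ERAP1 call with siPDIA5 (0.0747 and 0.0643). Both were also lost without some single libraries, as given above.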

How the results depend on the processing

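Over the planned comparisons, 1086 of 1158 values of single genes under another setting kept direction and call, 34 lost the call, 13 gained it and 25 changed sign. All calls of siRNA against siNC and of time with siNC held in every setting tried in which the gene was tested, except TAPBP with siPDIA1 at 96 h (13 of 15). A filter of at least 5 RPKM left out TAP2 and ERAP1. The larger moves in the count of the 8 genes called, with some smaller ones, were as follows. Other small moves are left out. For siPDIA1 at 48 h, 1 became 3 after quantile normalization, 2 with the groups compared alone, 2 with protein-coding genes alone and 1 to 2 without a library. For siPDIA1 against siPDIA5 at 48 h, 4 became 1 to 5 without a library. At 96 h this count of 4 became 3 without any 1 of the 6 libraries compared. It was also 3 with a pseudocount of 0.25, no filter, at 5 RPKM, after median centring, with a replicate block and with no trend. For the siPDIA1 shift, 1 became 0 with no filter, 0 with the groups compared alone and 0 to 1 without a library. For the siPDIA5 shift, 2 became 1 with no filter, 1 at 5 RPKM, 1 with the groups compared alone and 1 to 2 without a library. After median centring the siPDIA5 shift was called in 3. For siPDIA5 96 h against 48 h, 5 became 3 with no filter and 3 to 4 without a library. The cause was not tested.

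All sign changes were in values called in neither setting. After median centring, TAP1 with siPDIA1 at 96 h was 0.0068, siPDIA1 against siPDIA5 at 48 h was -0.048 for HLA-E and -0.068 for TAP2, and ERAP1 in siPDIA1 over time was 0.034. After quantile normalization, siPDIA1 at 96 h gave 0.047 for B2M and 0.021 for TAP1, siPDIA1 against siPDIA5 at 48 h gave -0.022 for HLA-E and -0.12 for TAP2, the siPDIA1 shift of B2M was 0.0057, and the time differences were 0.0090 for ERAP1 in siPDIA1 and 0.0195 for B2M in siPDIA5. Leaving out a library, siPDIA1 at 48 h ranged from -0.016 to 0.033 for B2M, and at 96 h from -0.046 to 0.11 for HLA-B, -0.076 to 0.049 for B2M and -0.10 to 0.081 for TAP1. siPDIA5 ranged from -0.014 to 0.12 for TAP2 at 48 h, and at 96 h from -0.0074 to 0.12 for B2M and -0.0202 to 0.067 for TAP2. siPDIA1 against siPDIA5 ranged from -0.032 to 0.065 for TAP2 at 48 h, and at 96 h from -0.027 to 0.0403 for HLA-E and -0.018 to 0.14 for TAP1. The siPDIA1 shift ranged from -0.13 to 0.0204 for HLA-B and -0.088 to 0.037 for B2M, the siPDIA5 shift from -0.097 to 0.038 for TAP2. Over time ERAP1 in siPDIA1 ranged from -0.052 to 0.035 and B2M in siPDIA5 from -0.053 to 0.0104.

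Of all genes, those called at 5 RPKM were 3505 for siPDIA5 at 48 h (5352 in the fit reported), 3058 for siPDIA1 against siPDIA5 at 48 h (4813) and 3775 at 96 h (5672). For siNC over time 1085 were called with the groups compared alone (2839 in the fit reported). Same-numbered libraries correlated from -0.257 to 0.139 (4 of 45 pairs over 0.1), and 9 of 18 libraries correlated best with their own number, so the numbers were not taken to pair samples. With the replicate number as a block, 1 call of the 8 genes changed, HLA-C for siPDIA1 against siPDIA5 at 96 h (adjusted p = 0.0623; 3 called instead of 4). Depth is an estimate, so no counting interval is given.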

Other observations

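The class II route was near absent, apart from the peptide editor HLA-DM. Of 8 class II genes only HLA-DMA and HLA-DMB passed the filter, while HLA-DRA reached 0.253 RPKM, CD74 0.129 and the transactivator CIITA 0.195. HLA-DMA was at a mean of 8.42 RPKM with siNC and 4.65 with siPDIA5 at 96 h (-0.73 ± 0.08, adjusted p = 9.05e-07). HLA-DMB, at a mean of 1.03 RPKM, passed the filter mainly through siNC (means of 1.73 RPKM at 48 h and 1.47 at 96 h). Its knockdown means were 0.75 and 1.22 RPKM with siPDIA1 and 0.48 and 0.56 with siPDIA5. A level below siNC was therefore favoured by the filter. Its called differences (-0.62 with siPDIA1 at 48 h, -0.88 and -0.67 with siPDIA5) are given as a description only. The summed class II level was 9.97 to 11.5 RPKM with siNC and 5.46 to 6.16 with siPDIA5 at 96 h, where HLA-B, HLA-C and HLA-E rose.

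Across the 18 libraries and 9988 protein-coding genes, Pearson's r of log2(RPKM + 1) with B2M was highest for NUDT22 (0.852), ARRDC1 (0.848) and MGST3 (0.833). With TAP1 it was highest for SPTBN5 (0.859), RPS27L (0.857) and MRPL10 (0.849). The points share libraries and groups and the genes were picked for the highest r, so these are descriptions.

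Without siPDIA1 96 h replicate 1, which stood apart, the 4 genes called for siPDIA1 at 96 h were called again (adjusted p of 0.0241 for HLA-C, 0.00364 for HLA-E, 0.0373 for TAPBP and 4.63e-05 for ERAP1).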
